A study of Mus musculus with 9 samples.

Results

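The variable genes of the immunoglobulin kappa light chain were followed through 9 RNA-seq libraries. They were chosen by name and type alone, as the genes whose symbol begins with Igkv and whose annotated type is a functional immunoglobulin V gene, and 100 of the 55322 genes in the table of FPKM values met that rule. FPKM is the number of reads on a gene divided by the length of its exons and by the depth of the library. A further 60 Igkv genes are annotated as pseudogenes and were kept apart. The study compared CD11b+ B cells with CD11b− B cells, which were sorted from the BM of wild-type C57BL/6 mice 48 h after 5 mg/kg of LPS was given into the peritoneal cavity, and peritoneal macrophages (PMs, CD11b+F4/80+) from untreated wild-type mice, with 3 libraries of each. LPS is a cell wall component of Gram-negative bacteria, and CD11b is an integrin chain of myeloid cells. BM cells had been depleted of cells bearing CD3, CD4, CD8, Gr-1, NK1.1 or TER119 before the sort. The B cells came from treated mice and the PMs from untreated ones, and no B cells of untreated mice were among the libraries, so cell type and LPS cannot be told apart in any comparison with PMs. The labels do not say whether the libraries of a group came from different mice, so the p-values measure only the spread between these libraries.

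An antibody light chain gene is assembled during B cell development in the BM. The RAG recombinase joins 1 V gene to 1 of the short J segments of the same locus, and the joined exon is spliced to the constant exon, Igkc in the case of kappa. A mature B cell as a rule makes 1 light chain, so the reads on the Igkv genes of a B cell library give how often each V gene was used, weighted by how much light chain mRNA each cell held. Plasma cells hold far more of it than resting B cells. PMs do not rearrange the locus and served as the background.

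All 100 genes lie on chromosome 6 and were found by identifier in GENCODE release M21, on build GRCm38, as genes of 2 exons, a leader exon and the V exon. They fall into 20 families by the first number of the symbol and span 3149 kb, with the nearest 18.4 kb and the farthest 3166 kb from the segment Igkj1. A V gene in the orientation of Igkc joins by deletion of the DNA between, and 38 genes are of that kind. The other 62 lie the opposite way and join by inversion.

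The V exons of Igkv12-46 and Igkv4-72 are shown because these genes had the highest usage of any gene in any B cell library. Igkv12-46 (ENSMUSG00000076564) has its V exon at chr6:69764523-69764820 on the minus strand, and the V exon of Igkv4-72 (ENSMUSG00000076545), shown without its first 3 bases, is at chr6:69226854-69227153 on the same strand. The sequences are those of GENCODE M21 in the direction of transcription. Capitals run from the codon of the conserved second cysteine to the end of the exon, which is the germline part of CDR3, the loop that is completed by the joining.
Igkv12-46: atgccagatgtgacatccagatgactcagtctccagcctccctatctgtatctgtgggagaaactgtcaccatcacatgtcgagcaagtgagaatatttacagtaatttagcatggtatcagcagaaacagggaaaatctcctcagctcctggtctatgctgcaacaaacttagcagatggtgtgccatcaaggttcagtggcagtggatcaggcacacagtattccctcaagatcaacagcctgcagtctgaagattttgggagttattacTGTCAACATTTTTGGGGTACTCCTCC
Igkv4-72: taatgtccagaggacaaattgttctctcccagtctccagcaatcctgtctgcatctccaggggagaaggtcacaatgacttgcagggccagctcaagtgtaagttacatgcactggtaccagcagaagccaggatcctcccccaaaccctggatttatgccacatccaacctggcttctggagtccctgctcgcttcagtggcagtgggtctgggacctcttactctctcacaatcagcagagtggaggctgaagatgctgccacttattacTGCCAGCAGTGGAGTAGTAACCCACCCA

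The last 60 bases of 8 more genes are given with the same marking, for 4 of the most used genes of the B cells (Igkv19-93, Igkv6-15, Igkv6-23, Igkv1-135), the highest gene of 1 CD11b+ library (Igkv3-2), the highest gene of the PM libraries (Igkv14-126) and the neighbours that share the germline CDR3 end of Igkv4-72 (Igkv4-59, Igkv4-68).
Igkv19-93: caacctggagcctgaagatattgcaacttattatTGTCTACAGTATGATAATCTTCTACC
Igkv6-15: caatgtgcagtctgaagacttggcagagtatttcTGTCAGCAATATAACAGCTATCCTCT
Igkv6-23: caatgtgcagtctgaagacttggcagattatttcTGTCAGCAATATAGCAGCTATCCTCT
Igkv1-135: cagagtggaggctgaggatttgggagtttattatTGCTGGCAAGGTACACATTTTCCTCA
Igkv3-2: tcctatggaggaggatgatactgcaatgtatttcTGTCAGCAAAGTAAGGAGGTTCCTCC
Igkv14-126: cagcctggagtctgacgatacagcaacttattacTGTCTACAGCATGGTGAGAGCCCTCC
Igkv4-59: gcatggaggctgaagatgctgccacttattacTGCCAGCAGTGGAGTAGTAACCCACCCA
Igkv4-68: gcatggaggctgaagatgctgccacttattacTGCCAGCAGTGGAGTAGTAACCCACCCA

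Such likeness bears on how reads can be assigned. Over their V exons, 46 of the 100 genes were at least 95% identical to another member, and the identity with the nearest member ran from 69.3% to 98.9% with a median of 94.3%. Igkv12-46 was 95% identical to Igkv12-41, and Igkv4-72 was 95.7% identical to Igkv4-68. A stretch of 150 bases, the length of a read, was shared with another Igkv gene or pseudogene by 10 genes, which held 8.68% of the usage in B cells. Of the 21 genes named by rule, only Igkv6-17 was among them, sharing 1.32% of its stretches with Igkv6-25. The sources do not state how reads that matched several genes, or that ran from V into J, were counted. The germline CDR3 end was identical in 10 sets of genes with 22 genes in all, and the largest set was Igkv4-72, Igkv4-71, Igkv4-68 and Igkv4-59.

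B cells and PMs were first compared in the total level of the family. Igkv genes took 0.344%, 0.374% and 0.324% of all reads on genes in the CD11b− libraries 1 to 3, and 0.433%, 0.379% and 0.613% in the CD11b+ libraries. In the PM libraries they took 0.00437%, 0.00312% and 0.00274%. The mean share was thus 102-fold the PM level in CD11b− B cells and 139-fold in CD11b+ B cells. Depth ran from 18014658 to 35251215 reads on genes per library, and the Igkv reads of a B cell library numbered from 99074 to 215997, against 553 to 911 in PMs.

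Nearly every member was read in B cells. At least 10 reads were found for 97, 99 and 98 genes in the CD11b− libraries and for 96 genes in each CD11b+ library, but for 22, 25 and 21 genes in PMs. All 6 B cell libraries had at least 10 reads on 93 genes. Igkv1-131 had 3 reads in CD11b− library 1 and none in any other library. In PMs 14 genes had no read, which allows up to 3 reads for each gene among 67403659 reads on genes, and this covers counting error only. By limma on log2(FPKM + 1), with Benjamini-Hochberg adjustment over all genes tested, 95 of 99 tested Igkv genes were above PMs in CD11b+ B cells, where 21.5% of all genes tested were above and 8.78% below. In CD11b− B cells 98 of 99 were above PMs, where 25.8% of all genes were above and 11% below. No Igkv gene was below PMs in either comparison, also with an unadjusted p under 0.05 (0 genes in both, beside 11.1% and 13.5% of all genes) and by edgeR or DESeq2. Both comparisons share the PM libraries.

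The B cell groups were then compared with each other, a question the study posed for the whole transcriptome. The share of reads on Igkv genes averaged 0.347% ± 0.0252 (SD, n = 3) in CD11b− B cells and 0.475% ± 0.123 (SD, n = 3) in CD11b+ B cells. The libraries did not overlap, and the exact two-sided permutation test gave p = 0.1, the smallest it can give with 3 against 3, or 0.114 after adjustment over 8 measures of the libraries. CD11b− library 2 at 0.374% and CD11b+ library 2 at 0.379% lay close, and as a share of summed FPKM, with 2.57%, 2.69% and 2.39% against 3.05%, 2.67% and 3.68%, the groups overlapped (p = 0.2, exact permutation test). CD11b+ library 3 set much of this difference, which was 0.128 percentage points with it and 0.0586 without it. Igkv12-46 and Igkv4-72 held 24.5% of the summed Igkv FPKM of that library, and its Igkv share was 0.457% when both were left out.

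**Figure D1:**
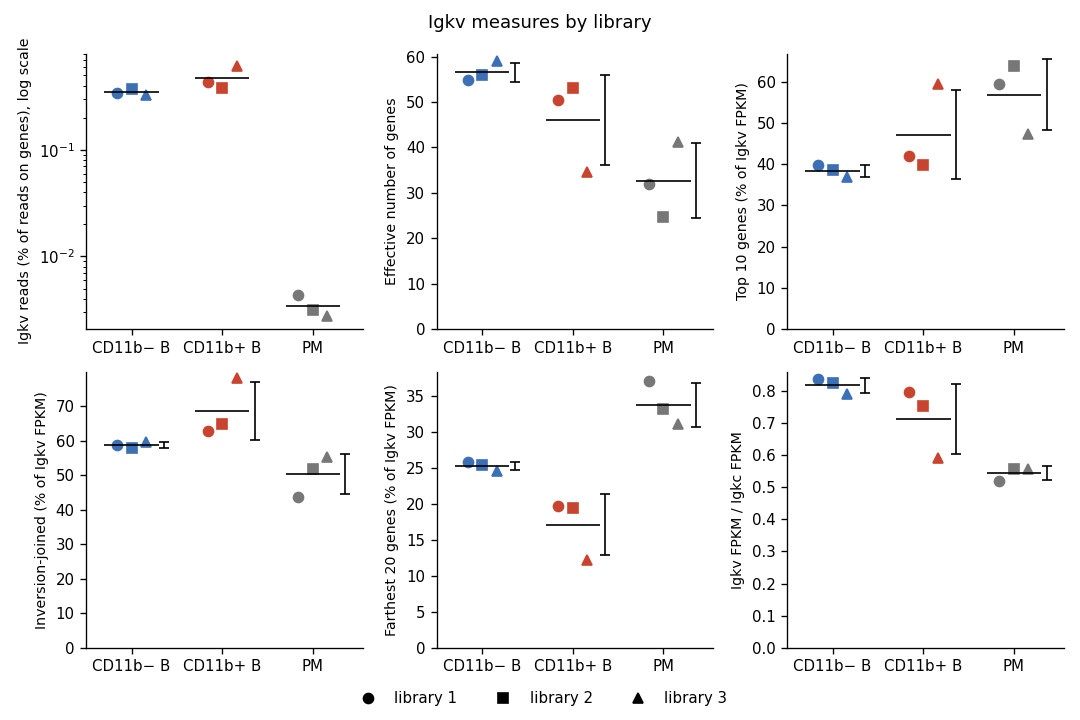
Each panel plots 1 measure for the 9 libraries, with the group mean as a line and, except on the log scale of the first panel, the SD as a bar; symbols mark the library number. In the 6 panels shown (Igkv share, effective number of genes, top 10 share, inversion-joined share, share of the farthest 20 genes and Igkv over Igkc FPKM), CD11b+ B cell library 3 is the highest or the lowest of its group, and the Igkv share of PMs lies about 100-fold below that of B cells.

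Usage is given from here on as the percent of the summed Igkv FPKM of a library that a gene held, which is a level per length and does not depend on the total. CD11b− B cells had an even and repeatable usage. Their highest gene in all 3 libraries was Igkv19-93, the only member of its family, with 6.61%, 5.47% and 5.49%, and the next was Igkv6-15 with 5.98%, 5.36% and 5.39%. Of the 10 highest genes of each CD11b− library, 7 were the same in all 3 (Igkv19-93, Igkv6-15, Igkv1-135, Igkv1-117, Igkv6-23, Igkv10-96 and Igkv6-17). In CD11b+ B cells 3 were the same in all libraries (Igkv19-93, Igkv6-15 and Igkv12-46), and 19 genes were among the 10 highest in at least 1 library, against 13 in CD11b− B cells.

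The highest gene differed between the CD11b+ libraries. It was Igkv3-2 with 7.27% in library 1, Igkv12-46 with 6.16% in library 2, and Igkv12-46 again with 13.7% in library 3, where Igkv4-72 followed with 10.8%. The 10 highest genes of a library held 39.7%, 38.5% and 36.8% of usage in CD11b− B cells and 42.0%, 39.8% and 59.5% in CD11b+ B cells. The difference of 8.77 percentage points (p = 0.1, exact permutation test, no overlap) was 2.58 without CD11b+ library 3. Usage of 50% was reached with 15, 15 and 16 genes in CD11b− B cells and with 14, 14 and 7 in CD11b+ B cells.

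**Figure D2:**
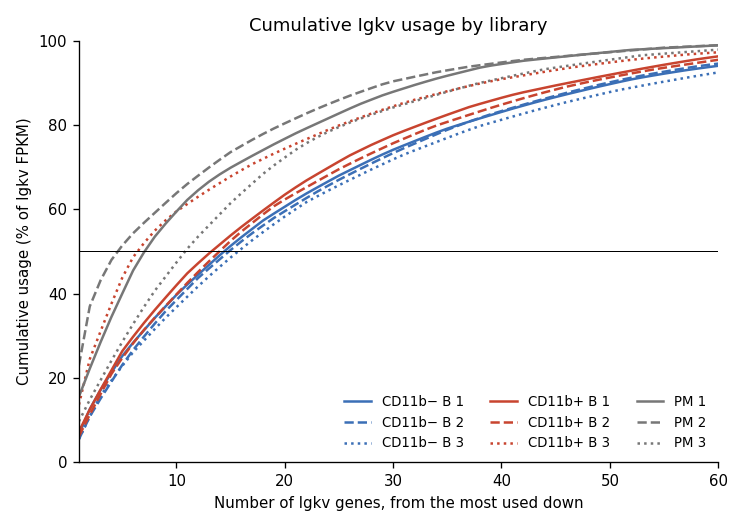
Usage summed from the most used gene down (percent of Igkv FPKM) against the number of genes, 1 curve per library. The CD11b− B cell curves nearly coincide, and CD11b+ B cell library 3 reaches 50% (thin line) with 7 genes, where the other 5 B cell libraries need 14 to 16.

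The effective number of genes, the exponential of the Shannon entropy, states how many equally used genes would give the same evenness. It was 54.9, 55.9 and 59.0 in CD11b− B cells and 50.5, 53.1 and 34.6 in CD11b+ B cells. The groups did not overlap (p = 0.1, exact permutation test, the smallest possible). Without CD11b+ library 3 the difference shrank from −10.6 to −4.83 genes, and with only Igkv12-46 and Igkv4-72 left out that library still had an effective number of 41.8. PMs had 32.0, 24.7 and 41.2 from their few reads.

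Usage also spread more between CD11b+ libraries than between CD11b− libraries. Among the 51 genes with a mean usage of at least 0.5%, the coefficient of variation over 3 libraries had a median of 13.5% in CD11b− B cells and 36.9% in CD11b+ B cells, and it was the larger in CD11b+ B cells for 46 genes. Across the 100 genes, Pearson's r between libraries was 0.959 to 0.982 within CD11b− B cells and 0.542 to 0.784 within CD11b+ B cells. Between the groups it ran from 0.537 to 0.873. These correlations are descriptions over genes of 1 locus, which share mapping and length properties and are not independent. By Pearson's r, CD11b+ library 2 was nearer to each CD11b− library (0.847 to 0.873) than to either other CD11b+ library (0.784 and 0.698). By ranks (Spearman's rho) this held for CD11b− libraries 1 and 2 (0.931 and 0.926) but not for library 3. There rho was 0.906, beside 0.911 and 0.885 with CD11b+ libraries 1 and 3.

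**Figure D3:**
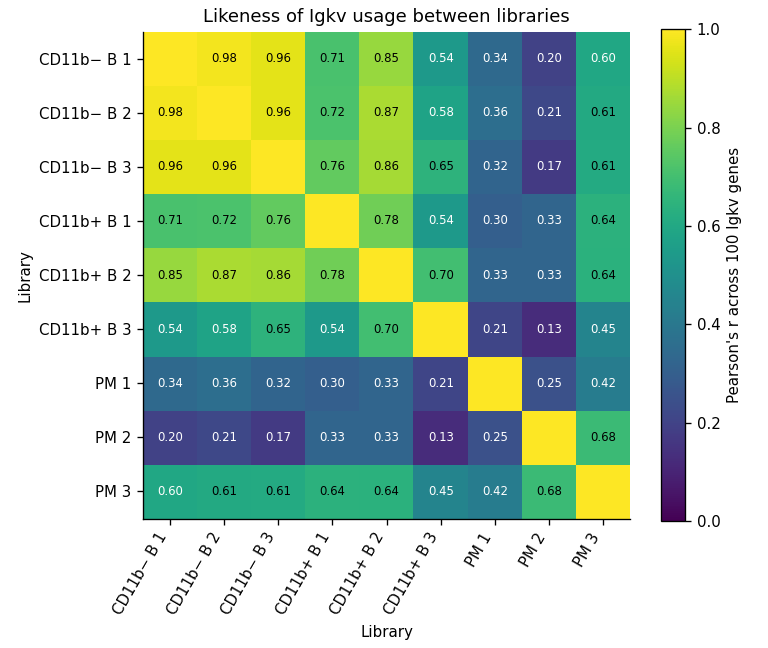
Pearson's r of usage across 100 Igkv genes for each pair of the 9 libraries, coloured from 0 to 1. The CD11b− B cell block runs from 0.96 to 0.98, the CD11b+ B cell block runs from 0.54 to 0.78, and the PM libraries are as unlike each other (0.25 to 0.68) as they are unlike B cells (0.13 to 0.64).

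Single genes were compared by limma on the deposited FPKM. None of the 99 tested Igkv genes passed the adjusted threshold in CD11b+ against CD11b− B cells, in either direction, where 0.0689% of all genes tested were higher and 0% were lower. The smallest adjusted p of a member was 0.135, for Igkv14-130. With an unadjusted p under 0.05, 8 members were higher and 21 lower, beside 4.65% and 3.04% of all genes tested. The edgeR test on whole reads called none, and DESeq2 called 3 higher (Igkv4-55, Igkv12-89 and Igkv3-4, adjusted p = 0.00479, 0.0152 and 0.0371) and none lower, where it called 1.89% of all genes higher and 0.369% lower. With a replicate block by the number in the titles limma called 1 member higher, Igkv4-55, where 0.0735% of all genes were higher and 0% lower. The log2 fold changes of the members ran from −1.32 to 2.33 with a median of −0.07, beside 0.03 over all genes tested. In FPKM 8 members were higher and 16 were lower without overlap between the groups, and 8.63% and 6.32% of all genes tested were so.

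In usage, where the total is set equal, 3 members were higher and 36 lower in CD11b+ B cells without overlap. When every gene of the table was scaled in the same way by the summed Igkv FPKM, 3.44% of all genes were higher and 16.9% lower without overlap, because this scaling lowers the median log2 fold change of all genes to −0.16. The mean usage was lower in CD11b+ B cells for 73 genes and higher for 27. The positive differences were thus held by few genes and the negative ones spread over many.

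Igkv12-46 had the largest positive difference in mean usage over all libraries. That rank rested on CD11b+ library 3, since the difference of Igkv3-2 was the larger without it. With 1 library left out the log2 fold change of Igkv12-46 ran from 1.09 to 2.10. Its usage was 2.34%, 3.18% and 3.47% in the CD11b− libraries and 4.73%, 6.16% and 13.7% in the CD11b+ libraries. Every CD11b+ library was above every CD11b− library (p = 0.1, exact permutation test, unadjusted), and the means were 3.0% ± 0.589 and 8.18% ± 4.79 (SD, n = 3 each). Its FPKM was 218, 323 and 305 against 554, 632 and 2244, a log2 fold change of 1.73 ± 0.50 (SE) with an adjusted p of 0.460 by limma. In PMs its usage was 2.86%, 3.42% and 3.36%, close to that of CD11b− B cells, from 23, 32 and 19 reads. The gene lies at chr6:69764523-69765022, the 39th from the J segments.

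The other 2 members higher in usage without overlap were Igkv12-89 and Igkv3-4, which were named after their values were seen. Igkv12-89 ranged from 1.01% to 1.40% in the CD11b− libraries and had 2.91%, 1.43% and 1.76% in the CD11b+ libraries. Igkv3-4 had 1.61%, 1.79% and 1.24% and then 1.95%, 2.43% and 2.96%. The closest pair of libraries across the groups was thus near to touching for both genes.

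Several other genes reached their highest usage in 1 or 2 CD11b+ libraries. Igkv4-72 (chr6:69226854-69227433) was at 0.937%, 0.747% and 2.27% in CD11b− B cells and at 0.759%, 0.701% and 10.8% in CD11b+ B cells. Library 3 was 14.2 times the median of the other 5 B cell libraries, with 25191 reads, and the other 2 CD11b+ libraries lay near or below the lowest CD11b− library. The limma log2 fold change of 1.04 turned to −0.45 without that library. The genes that share its germline CDR3 end were not high in that library, where Igkv4-59 had 1.11%, Igkv4-68 had 0.956% and Igkv4-71 had 0.0132%.

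Igkv3-2 (ENSMUSG00000095351, chr6:70698449-70699067), the second gene from the J segments, was high in CD11b+ library 1 with 7.27%, against 2.60% and 0.930% in libraries 2 and 3 and 1.42%, 1.30% and 2.46% in CD11b− B cells. Igkv4-78 was also high in CD11b+ library 1 with 3.42%, against 0.783% and 0.0352% in the others and 0.301%, 0.0648% and 0.137% in CD11b− B cells, so that library 1 was 24.9 times the median of the other 5. Igkv4-70 was highest in CD11b+ library 3 with 4.86%, beside 2.14% and 0.756% in libraries 1 and 2 and 0.289%, 1.11% and 0.439% in CD11b− B cells. Each of these genes overlapped between the groups. Different CD11b+ libraries thus led for different genes.

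Igkv4-55 had a log2 fold change of 1.61 ± 0.45 (SE) by limma, with an adjusted p of 0.441. Its FPKM was 65.9, 124 and 159 in CD11b− B cells and 177, 390 and 548 in CD11b+ B cells, without overlap, while its usage of 0.708%, 1.22% and 1.81% against 1.51%, 3.80% and 3.33% did overlap. Among the most used genes, Igkv19-93 had 5.25%, 5.14% and 6.61% in CD11b+ B cells and Igkv6-15 had 4.55%, 4.88% and 6.52%, both overlapping with the CD11b− values above. Igkv6-23 ranged from 3.22% to 3.96% in CD11b− B cells and from 2.15% to 6.16% in CD11b+ B cells. Igkv10-96 ranged from 2.75% to 3.16% and from 2.11% to 3.15%, and Igkv8-30 from 2.06% to 2.67% and from 1.25% to 4.55%.

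**Figure D4:**
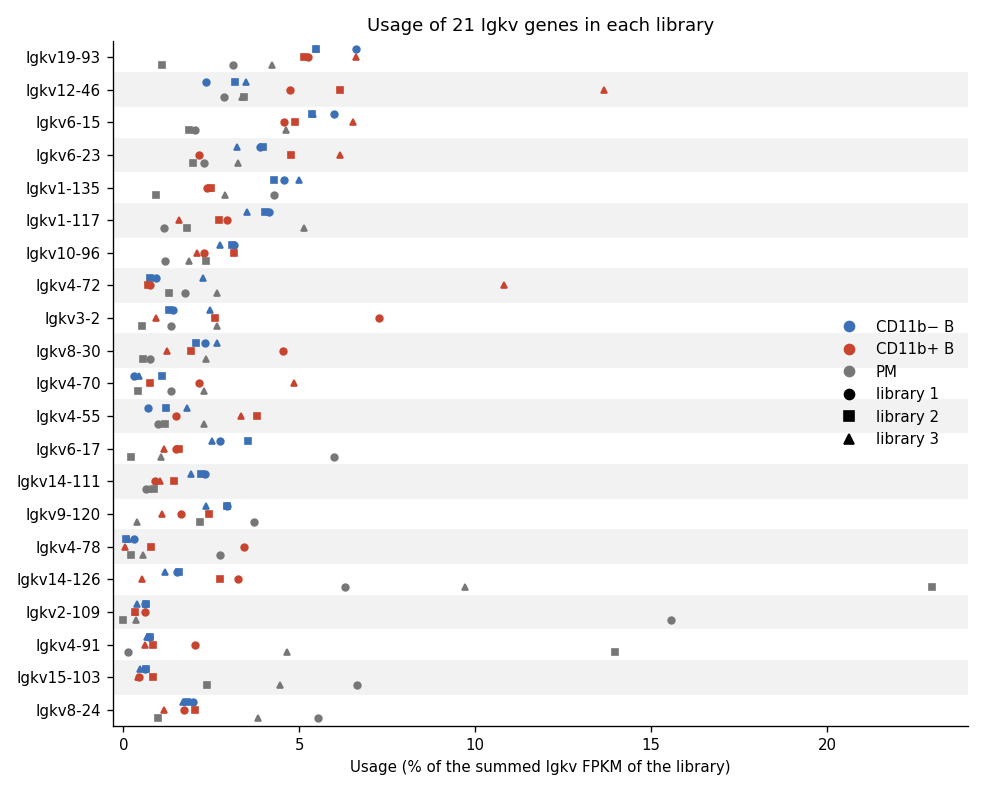
Usage (percent of the summed Igkv FPKM) of the 21 genes named by rule, 1 point per library, with colours for groups and symbols for library numbers. Igkv12-46 lies higher in all 3 CD11b+ B cell libraries, Igkv4-72 and Igkv3-2 stand out in 1 CD11b+ library each at 10.8% and 7.27%, Igkv1-135 is lower in all 3, and Igkv14-126, Igkv2-109 and Igkv4-91 reach 23.0%, 15.6% and 14.0% in single PM libraries.

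The most negative difference in mean usage was that of Igkv1-135. The gene (ENSMUSG00000096336, chr6:67609713-67610508), second from the far end of the locus, had 4.58%, 4.28% and 4.98% in CD11b− B cells and 2.39%, 2.50% and 2.46% in CD11b+ B cells. The groups lay far apart beside their spread, with means of 4.61% ± 0.352 and 2.45% ± 0.0566 (SD, n = 3 each; p = 0.1, exact permutation test, the smallest possible). In FPKM, where CD11b+ libraries held more Igkv in total, the gene had 426, 434 and 437 against 280, 257 and 404, a log2 fold change of −0.49 ± 0.20 (SE) with an adjusted p of 0.643 by limma. PMs had 4.29%, 0.922% and 2.88%.

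Of the other 4 genes with the most negative differences, Igkv1-117, Igkv6-17 and Igkv14-111 were lower in all CD11b+ libraries, and Igkv9-120 overlapped. Mean usage was 3.89% ± 0.327 and 2.42% ± 0.731 for Igkv1-117, 2.93% ± 0.538 and 1.41% ± 0.224 for Igkv6-17 and 2.15% ± 0.194 and 1.12% ± 0.271 for Igkv14-111, CD11b− B cells first (SD, n = 3 each; p = 0.1 for each, exact permutation test). Igkv9-120 had 2.94%, 2.94% and 2.36% against 1.65%, 2.44% and 1.11%. By limma none of them passed the adjusted threshold, and the fold changes on the log2 scale ran from −0.62 to −0.31. All 4 are in the orientation of Igkc.

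Among the 20 families, Igkv12 was higher and Igkv1, Igkv17, Igkv9, Igkv11 and Igkv7 were lower in every CD11b+ library than in every CD11b− library (p = 0.1 each, unadjusted, exact permutation test). Under the same scaling 3.44% of all single genes were higher and 16.9% lower without overlap. The 6 genes of Igkv12 held 8.01% ± 0.412 of usage in CD11b− B cells and 14.4% ± 3.45 in CD11b+ B cells (SD, n = 3 each). Most of that difference lay in Igkv12-46: the other 5 genes held 5.39%, 5.29% and 4.33% against 8.45%, 5.53% and 4.61%, which overlap. The 10 genes of Igkv1 held 12.4% ± 0.384 and 7.80% ± 1.47. Igkv4, the largest family with 26 genes, held 11.4%, 11.7% and 15.2% in CD11b− B cells and 17.7%, 14.7% and 26.1% in CD11b+ B cells, which overlap. Igkv17 held 4.60% ± 0.193 and 2.96% ± 0.686 over its 2 genes, and Igkv9 held 3.66% ± 0.249 and 2.59% ± 0.631 over 4 genes. Igkv11 and Igkv7 are single genes at a mean usage under 0.3%.

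Position and orientation were examined because joining by deletion or inversion and the distance to the J segments are features in which the Igkv genes differ. Genes that join by inversion held 58.9%, 57.9% and 59.6% of usage in CD11b− B cells and 62.9%, 64.8% and 78.2% in CD11b+ B cells, without overlap (p = 0.1, exact permutation test, 0.114 adjusted over the 8 measures). The difference was 9.83 percentage points, 5.07 without CD11b+ library 3 and 12.1 when the highest gene of each library was left out. The last value depends on which gene was left out. In CD11b+ library 1 it was Igkv3-2, in the orientation of Igkc, and the inverted share rose from 62.9% to 67.9%. In the other B cell libraries it was an inverted gene, and the share fell. Of the 38 genes in the orientation of Igkc, 19 were lower in usage without overlap and 1 was higher, and of the 62 inverted genes 17 were lower and 2 higher, beside 16.9% of all genes lower and 3.44% higher under the same scaling. The median log2 fold change in FPKM was −0.31 for the first and 0.04 for the second. Orientation follows position: the 20 genes that include the centre of the locus, between 1021 and 1679 kb from Igkj1, are all inverted and all of family Igkv4, while 3 of the 20 genes beyond 2419 kb are inverted.

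By stretches of 20 genes in order from the J segments, the nearest stretch held 25.8%, 27.3% and 26.1% of usage in CD11b− B cells and 26.2%, 25.6% and 25.7% in CD11b+ B cells. The farthest held 25.8%, 25.4% and 24.6% against 19.7%, 19.5% and 12.3%, and 18 of its genes had a lower mean usage in CD11b+ B cells, 12 of them without overlap, where 73 of all 100 members had a lower mean and 36 were lower without overlap. In between, the second stretch held 17.8%, 18.7% and 17.7% against 20.5%, 21.9% and 21.6%. The third, made of Igkv4 genes, held 10.8% ± 1.96 against 17.7% ± 6.36 (SD, n = 3 each), with 24.9% in CD11b+ library 3. These stretches were laid out after the data had been seen and are a description. The 50 genes farthest from the J segments held in sum 3.32 percentage points less in CD11b+ B cells (45.5% ± 1.86 against 48.8% ± 1.40, SD, n = 3; p = 0.1, exact permutation test), but 4.44 points more when the highest gene of each library was left out, so no direction is given for the far 50 genes.

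**Figure D5:**
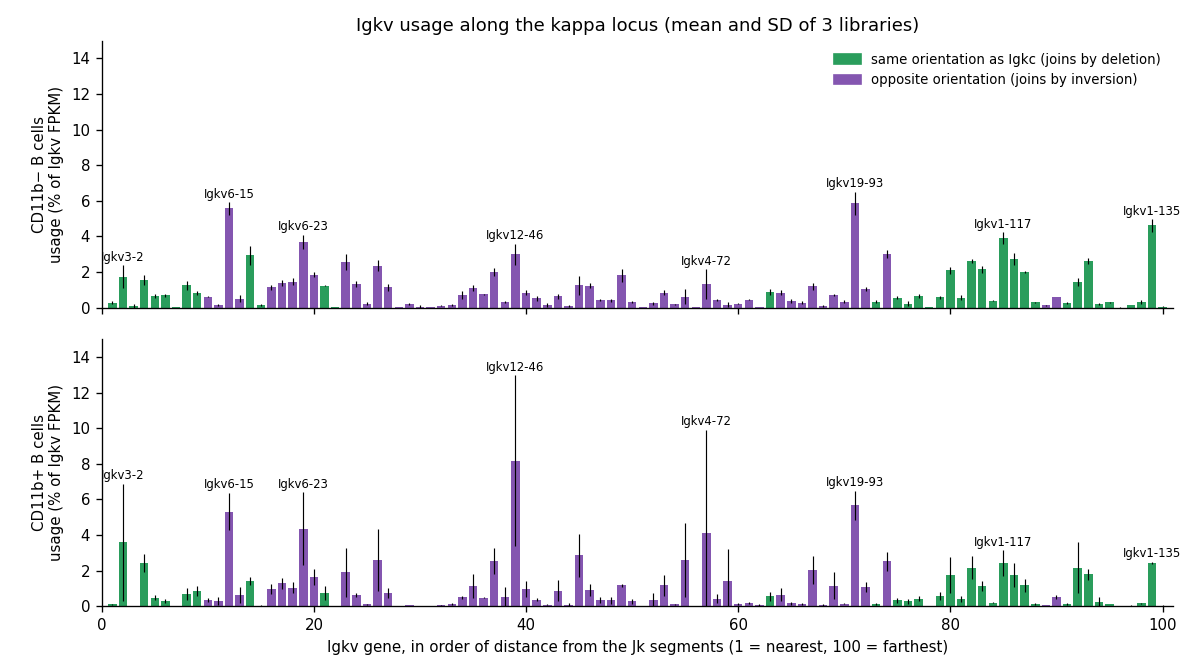
Mean usage (percent of Igkv FPKM) of each Igkv gene in order from the J segments, CD11b− B cells above and CD11b+ B cells below, with bars coloured by orientation and lines for the SD of 3 libraries, cut at 0. CD11b+ B cells show wider error lines at Igkv12-46, Igkv4-72 and Igkv3-2 and lower bars at Igkv1-135 and Igkv1-117 near the far end.

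The rest of the light chain loci gave the setting. Igkc, the only kappa constant gene, had an FPKM of 11123, 12312 and 11100 in CD11b− B cells and of 14717, 13629 and 27881 in CD11b+ B cells, without overlap, a log2 fold change of 0.63 ± 0.57 (SE) with an adjusted p of 0.727 by limma. Summed Igkv FPKM was 0.838, 0.823 and 0.790 of Igkc FPKM in CD11b− B cells and 0.797, 0.753 and 0.590 in CD11b+ B cells, which overlap (p = 0.2, exact permutation test). Igkv genes held 82.6%, 82.4% and 69.0% of light chain V FPKM in CD11b− B cells and 87.6%, 85.7% and 82.9% in CD11b+ B cells, the remainder being the lambda genes Iglv1, Iglv2 and Iglv3. The difference of 7.36 percentage points (p = 0.1, exact permutation test) was 2.85 without CD11b− library 3. Of the 15 tested genes in the list of kappa J and constant genes and lambda genes, none passed the threshold between the B cell groups, and all 15 were higher in both B cell groups than in PMs. Between the B cell groups 1 gene (Igkc) was higher in CD11b+ B cells without overlap. Lower without overlap were 3 (Igkj2, Igkj5 and Iglj1), beside 8.63% of all genes higher and 6.32% lower. The median log2 fold change was −0.34, beside 0.03 over all genes, and each kappa J segment had a lower mean.

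CD11b− library 3 and CD11b+ library 3 also differed from the others of their groups in genes of B cell precursors. Rag1, a subunit of the recombinase, had an FPKM of 0.0136 and 0.0911 in CD11b− libraries 1 and 2 and of 14.0 in library 3, and of 0.0206, 0.0694 and 2.96 in CD11b+ B cells. Igll1, part of the surrogate light chain that stands in before a light chain is made, had 53.9 in CD11b− library 3 and 12.7 in CD11b+ library 3, and at most 1.39 in the other 4 B cell libraries. None of the 15 precursor genes passed the threshold between the groups, and their summed FPKM ran from 428 to 1466 in the CD11b− libraries and from 312 to 655 in the CD11b+ libraries. A higher mean in CD11b+ B cells was found for 0 of the 15, and 1 was lower without overlap. Their median log2 fold change was −0.65. The V(D)J recombination list had no call among 15 genes either. Among 22 regulators of the kappa locus none passed, 7 were lower in CD11b+ B cells without overlap and 1 was higher (6.32% and 8.63% of all genes were so), with a median log2 fold change of −0.24 beside 0.03 over all genes. Spib, an ETS factor that binds the kappa enhancers, had 747, 684 and 897 against 484, 532 and 438.

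Among plasma cell genes 1 of 16 passed the threshold between the B cell groups, where 0.0689% of all genes were called higher. Jchain, which links antibody multimers, had an FPKM of 6.18, 17.4 and 22.7 in CD11b− B cells and of 101, 83.9 and 449 in CD11b+ B cells, without overlap. Mzb1, a chaperone of antibody assembly, had 15.5, 16.3 and 29.8 against 59.9, 49.3 and 51.2. The gene that passed was Creld2, an endoplasmic reticulum protein, which rose by 1.67 on the log2 scale (adjusted p = 0.0135 by limma). A further 12 had a higher mean in CD11b+ B cells and 3 (Irf4, Slamf7 and Tnfrsf13b) a lower one, 8 of the 16 were higher without overlap, beside 8.63% of all genes, and the summed FPKM ran from 703 to 815 in the CD11b− libraries and from 1103 to 1473 in the CD11b+ libraries. The order of the libraries was not that of the Igkv share throughout: CD11b− library 3 had the lowest Igkv share of the 6 and the highest Jchain and Mzb1 of its group, and its Sdc1 FPKM of 5.94 was above the 2.94 and 1.80 of CD11b+ libraries 1 and 2. The 5 switched heavy chain genes looked at were added after their values were seen. Igha had an FPKM of 1.61, 3.10 and 1.99 against 5.76, 7.16 and 35.9, Ighg2c had 0.0226, 1.21 and 0.118 against 14.9, 29.6 and 37.1, and Ighg3 had 3.41, 2.85 and 0.546 against 22.9, 18.2 and 34.0, all without overlap. Ighg2b reached 22.9 in CD11b− library 3, above its level in CD11b+ library 2, and had 38.7 and 56.7 in CD11b+ libraries 1 and 3. Ighg1 had 0, 0.708 and 0 against 1.46, 0.133 and 1.29, so both overlapped between the groups. In bulk libraries, a few cells with much light chain mRNA and many cells with a little more of it cannot be told apart, and the part of plasma cells in the usage differences was not tested.

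Markers of other cells also differed. Of 16 neutrophil genes all had a higher mean in CD11b+ B cells and 3 passed the threshold (S100a8, S100a9 and Retnlg), beside 0.0689% of all genes. Their summed FPKM ran from 2.11 to 3.30 in the CD11b− libraries and from 219 to 1595 in the CD11b+ libraries. The B cell markers had no call between the groups, with a summed FPKM of 24944 to 25834 and 23552 to 25762, so the defining markers of B cells were present in all 6 libraries. Of these 16 genes, 2 had a higher mean in CD11b+ B cells. Without overlap 6 were lower and 0 higher, beside 6.32% and 8.63% of all genes. The 16 markers of resident peritoneal macrophages summed to 28008 to 62297 in PMs and to 103 to 133 in CD11b− and 159 to 347 in CD11b+ B cells. None passed the threshold between the B cell groups, and 11 were higher in CD11b+ B cells without overlap. The 10 monocyte markers summed to 12.4 to 20.6 and 57.1 to 95.3, with no call and 6 higher without overlap. Of all genes 8.63% were higher without overlap. Whether cells of another type contributed to the Igkv differences was not tested.

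PM libraries carried few Igkv reads, and the leading genes differed from those of B cells. Igkv14-126 (ENSMUSG00000094345, chr6:67896172-67896642) led in libraries 2 and 3, with 6.30%, 23.0% and 9.70% of usage from 48, 204 and 52 reads. Igkv4-91 had 0.131%, 14.0% and 4.66% from 1, 124 and 25 reads, and Igkv2-109 had 15.6%, 0% and 0.357% from 124, 0 and 2 reads. Of 2251 Igkv reads in PMs, 33.5% fell on 5 genes. Igkv15-103 had 6.64%, 2.37% and 4.45% and Igkv8-24 had 5.53%, 0.995% and 3.84%. In FPKM each of these 5 genes was lower in every PM library than in every B cell library, and the highest PM value was 19.5 for Igkv14-126, beside 87.3 to 382 in B cells. B cell genes were present in PMs too, with a Cd79a FPKM of 35.4, 23.9 and 21.6 and a summed FPKM of the B cell markers of 1081 to 1938, most of it from Cd74, which macrophages also make. The part of B cells or of free RNA in the Igkv reads of PMs was not tested.

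Igkv14-126 is known to pair with the heavy chain V gene Ighv11-2 in peritoneal B1 cells that bind phosphatidylcholine, so Ighv11-2 was added after the values were seen. In B cells the usage of Igkv14-126 was 1.53%, 1.57% and 1.19% in the CD11b− libraries and 3.25%, 2.75% and 0.531% in the CD11b+ libraries, so CD11b+ libraries 1 and 2 were the highest of the 6 and library 3 the lowest. Ighv11-2 had an FPKM of 33.1, 46.9 and 38.2 and of 122, 80.2 and 10.5 in the same libraries, again with CD11b+ libraries 1 and 2 the highest and 3 the lowest. In PMs it had 0.361, 2.30 and 3.65, from 3, 31 and 34 reads. Of 8 B1 cell genes none passed the threshold between the B cell groups, 6 were higher in CD11b+ B cells without overlap, beside 8.63% of all genes, and the summed FPKM of the 8 was 18.1 to 24.3 and 45.2 to 84.8. Most of that difference came from Zbtb32, and without it the sums were 16.6 to 19.0 and 25.3 to 29.1.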

How the data were processed

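RNA of 9 libraries was sequenced as pairs of 150-base reads from full-length cDNA (SMART-seq HT). The authors trimmed the reads with Trim Galore 0.4.4, Trimmomatic 0.36 and cutadapt 1.16, mapped them with STAR 2.7.2b and counted them on genes with featureCounts 1.6.1. The FPKM values that the authors deposited are those counts divided by exon length and depth. Their second table, a normalized signal per gene deposited for 11063 genes including 97 of the 100 Igkv genes, is counts divided by size factors. The submitters' notes name both GRCm38 and GRCm39, so positions and sequences were taken from GENCODE M21 (GRCm38) by Ensembl identifier. Use of strand in counting is not given in the sources.

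Groups came from the sample titles. Read numbers were recovered from FPKM and exon length and came out whole for 100% of values, to within 0.05 of a read. Reads of amplified cDNA are not molecules. Within each group the Igkv reads differed between libraries by more than counting error. The main test was limma 3.58.1 (lmFit and eBayes with trend, two-sided) on log2(FPKM + 1) of the 6 libraries of a comparison, with a minimum mean FPKM of 0.05, Benjamini-Hochberg adjusted, threshold 0.05. Fold changes on this scale understate low genes. Measures of a library were compared by exact two-sided permutation tests. Alternatives were edgeR 4.0.16 and DESeq2 1.42.0 on the whole reads, other pseudocounts, filters and scalings, a replicate block and libraries left out in turn. Only limma with the main settings, edgeR and DESeq2 were also run on simulated data, for CD11b+ against CD11b− B cells. The comparisons with PMs and the other alternatives were not simulated.

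Named genes are the 10 most used, the 5 with the largest difference in mean usage in each direction, the 5 that stand out most in 1 B cell library, the 5 highest in PMs, and any past the threshold (none). Members and gene lists were chosen with earlier results of these data known.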

Additional observations from a re-analysis of the deposited data

Results flagged for a closer look

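Reads on the 60 Igkv pseudogenes lay outside the comparisons above and stood above the PM level as a share of reads on genes. They took on average 0.003638% of reads on genes in CD11b− B cells and 0.003305% in CD11b+ B cells, against 3.07e-05% in PMs. At least 10 reads were found on 15, 17 and 19 pseudogenes in the CD11b− libraries, on 17, 13 and 16 in the CD11b+ libraries and on 0, 0 and 1 in PMs. Igkv4-77 and Igkv4-73 led, with a mean FPKM of 25.4 and 22.7 over the 6 B cell libraries. Relative to the reads on functional Igkv genes, pseudogene reads numbered 0.931, 0.852 and 1.40 per 100 in CD11b− B cells and 0.777, 0.727 and 0.620 in CD11b+ B cells, and 0.635, 0 and 2.35 in PMs from 5, 0 and 13 reads, so on this scale B cells were not above PMs. Whether these reads came from rearranged pseudogenes or from reads of similar functional genes was not tested.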

How the results depend on the processing

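In CD11b+ against CD11b− B cells no Igkv gene passed the threshold with any pseudocount, filter or scaling tried, by edgeR, with all 9 libraries in one fit, or with any library left out. DESeq2 called 3 higher, where it called 1.89% of all genes higher and 0.369% lower. A replicate block by the number in the sample titles called 1 higher (Igkv4-55, adjusted p = 0.0315 by limma), where 0.0735% of all genes were higher and 0% lower. A block by the number in the descriptions called no member and no other gene. In that block library 2 of each group carries a number of its own. This leaves little from which to estimate spread, so the lack of calls decides nothing. The numbers were not used as pairs, since the sources state no pairing and the titles and descriptions number the libraries differently. Over all genes, the deviations of libraries with the same title number correlated at 0.203, −0.0115 and 0.167. The pair at −0.0115 has different numbers in the descriptions. The other pairs, libraries 1 and libraries 3, have the same, and their correlations were the highest across the groups, with 0.0988 next. Whether these libraries were paired cannot be told. Against PMs 91 to 95 genes were called higher in CD11b+ and 96 to 97 in CD11b− B cells with 1 library left out. The 50 genes farthest from the J segments held 4.44 percentage points more in CD11b+ B cells without the highest gene of each library, the reverse of −3.32, where the gene left out was Igkv19-93, one of these 50, in each CD11b− library and Igkv3-2 or Igkv12-46, neither of which is, in the CD11b+ libraries. Scaled to equal summed Igkv FPKM, the log2 fold change turned negative for Igkv19-93 (−0.051), Igkv6-15 (−0.084), Igkv10-96 (−0.27), Igkv8-30 (−0.071), Igkv2-109 (−0.36), Igkv15-103 (−0.079) and Igkv8-24 (−0.20), none of which passed either way. This scaling moves every named gene down by a like amount (−0.42 to −0.37). With 1 library left out it ran from −0.015 to 0.53 for Igkv6-15, from −0.45 to 1.86 for Igkv4-72, from −0.12 to 0.59 for Igkv8-30 and from −0.23 to 0.32 for Igkv2-109, where it was −0.18 without CD11b+ library 1. With 3 libraries per group no exact test of a library measure can pass 0.05.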
